A study of Saccharomyces cerevisiae with 30 samples.

Results

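Transcript levels were compared between 4 mock-treated yeast strains that carry an auxin-inducible degron (AID) on an rRNA processing nuclease and the mock-treated WT strain without one. The comparison asks how far each tagged strain already differed from WT before any auxin was given. It covered the mock-treated samples of RAT1-AID, RRP44-AID, LAS1-AID, RRP17-AID and WT, which were 10 of the 30 samples in the series. The deposited values of both RRP17-AID mock samples were equal in all 7126 features, so RRP17-AID was counted as 1 library. That left 9 distinct libraries, 7 of AID strains and 2 of WT. RRP17-AID, with 1 library, has no replicate check and was given no test.

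All strains were haploid BY4741 derivatives (MATa his3Δ1 leu2Δ0 met15Δ0 ura3Δ0) with a FLAG-tagged RPB3 gene. WT carried the rice F-box protein gene osTIR1 under the GPD1 promoter at leu2 as the AID strains did, so the strains differ by design in the tag and its marker cassette alone. In each AID strain the C-terminus of RAT1, RRP44 (annotated as DIS3), LAS1 or RRP17 was fused to V5 epitopes and the IAA7 degron, with the KanMX6 cassette behind it. Cells were in mid-log growth in YPD, and the A and B libraries of a strain came from individual isolates handled on separate days. The study describes the tagged RRP17 gene as a partial loss-of-function allele even without auxin. Each strain has its own deposited table, and strain, tag and table cannot be told apart in any comparison with WT.

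The degron is bound by osTIR1 when auxin is present, and the tagged protein is then degraded by the proteasome. Rat1 and Rrp17 are 5′ to 3′ exonucleases and Las1 is an endonuclease that cuts within the second internal transcribed spacer of pre-rRNA. Rrp44 (Dis3) is the catalytic 3′ to 5′ exonuclease of the RNA exosome, which also trims small nucleolar RNAs (snoRNAs) and degrades short-lived noncoding transcripts, and Rat1 also acts in termination by RNA polymerase II. Gcn4 is the transcription factor that raises amino acid synthesis genes when amino acids are short.

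Values are given as scaled counts: reads per feature after rRNA depletion, normalised by the authors within each table and then brought to a common scale over the 9 libraries here. The log2 fold changes are on the log2(scaled count + 1) scale, which understates changes of low features. They were tested with limma (two-sided, moderated variances with an intensity trend) in 1 fit of the 8 replicated libraries over 6190 features with a mean of at least 10, and features with a Benjamini-Hochberg adjusted p under 0.05 were called. Reads on features, recovered for 8 of the 9 libraries, ranged from 20934052 to 98070287, with a median of 28231186. URA3 and MET17 were listed at 0 in all 9 libraries, and BY4741 lacks both genes. LEU2 lay at 34.7 to 56.0 in AID libraries and at 57.7 and 32.1 in WT. The 7 MATa-specific genes summed to between 72506.3 and 93709 in AID libraries and to 77055 and 77515 in WT, the 5 MATalpha-specific genes to between 1622 and 2306 in AID libraries and to 1771 and 2000.4 in WT. In bulk RNA a smaller share of cells with a transcript and less of it in every cell cannot be told apart.

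The strains differed widely in how many features departed from WT. RRP44-AID had 232 called features (128 higher and 104 lower, 3.75% of those tested), and RAT1-AID had 23 (3 higher and 20 lower, 0.372%). LAS1-AID had 0 called features (0% of those tested), although 504 had an unadjusted p under 0.05. For LAS1-AID, edgeR on recovered reads also called 0 features and DESeq2 called 93, of which 20 were higher and 73 lower. The RRP44-AID count fell to 69 without WT mock A, 75 without RRP44-AID mock A, 91 without RRP44-AID mock B, 121 without WT mock B, 131 without LAS1-AID mock A and 139 without LAS1-AID mock B. The RAT1-AID count was 53 without WT mock A and 150 without RAT1-AID mock B, and 13 without WT mock B, 11 without either RRP44-AID library and 13 without either LAS1-AID library. The 3 comparisons share the WT libraries, so a shift in those would enter all of them.

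**Figure D1:**
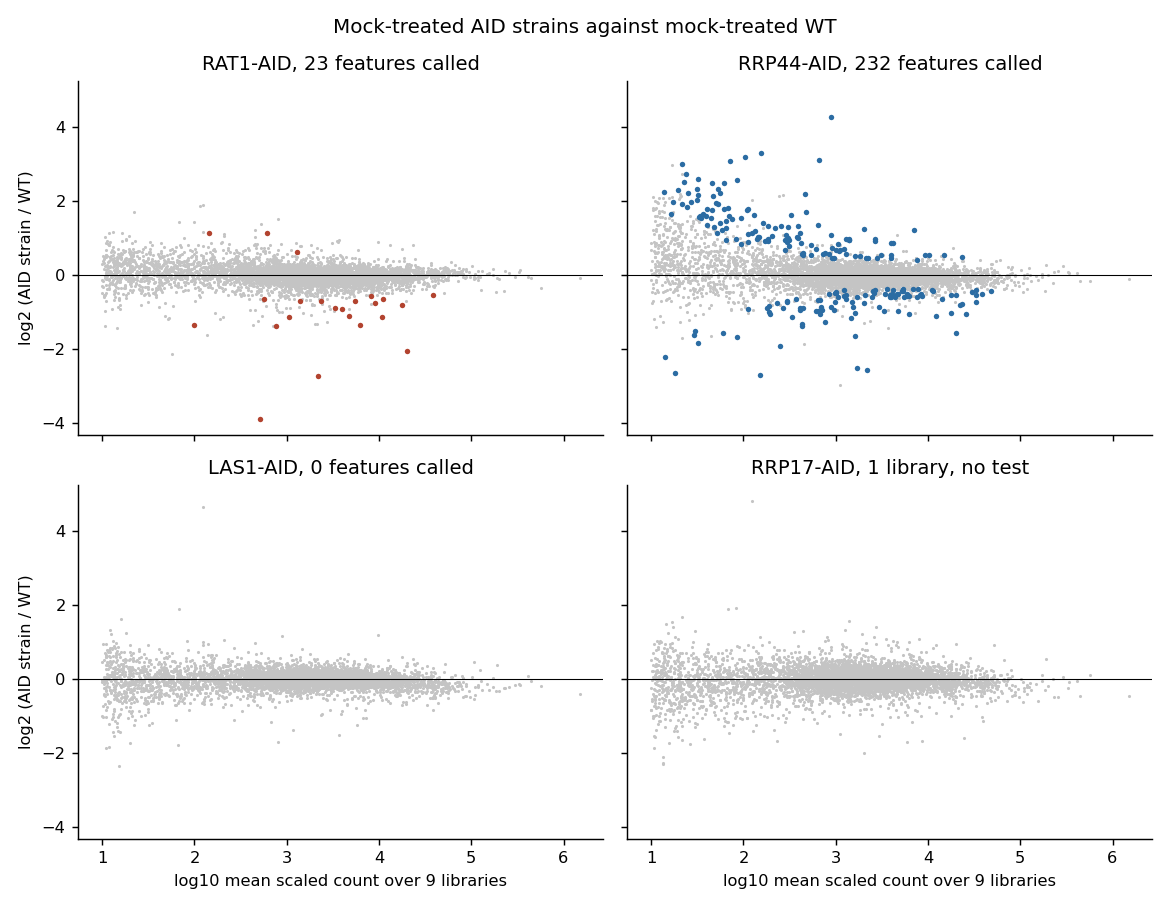
Log2 ratio of each mock-treated AID strain to WT (y axis) against the log10 mean scaled count over the 9 libraries (x axis), 1 panel per strain, with called features in colour and all others in grey. RRP44-AID shows 232 called features and RAT1-AID 23, LAS1-AID shows 0, and RRP17-AID, with 1 library, was not tested.

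The tagged genes were compared first. RAT1 (chrXV:418630-421650, minus strand) had 5757 and 6111 scaled counts in RAT1-AID, against 9710.1 and 10554 in WT. Every other AID library lay between 9656 and 10032, so both RAT1-AID libraries stood below all others. The RAT1 transcript fell in RAT1-AID (log2 fold change -0.77, SE 0.08, adjusted p = 0.00639), and also against the other AID strains (log2 fold change -0.73, SE 0.07, adjusted p = 0.00343), a difference that leaves WT out although the WT libraries share in the fitted variance. The call against WT was lost with only RAT1-AID and WT in the fit (adjusted p = 0.133), with DMSO-treated BY4741 libraries added to the fit of 8 (0.132) and with the A and B letters of these strains paired crosswise (0.23), and held on leaving out any 1 library.

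RRP17 (chrIV:1294693-1295400, plus strand) was at 1448 in RRP17-AID, against 2399.8 and 2720.1 in WT, a log2 ratio of -0.82 with no test. The level in RRP17-AID was not the lowest of the 9 libraries, since RAT1-AID had 1263 and 2195. DIS3 (chrXV:282421-285426, minus strand) had 6569.5 and 7162 in RRP44-AID, against 7413 and 8676 in WT, a difference that did not pass (log2 fold change -0.23, SE 0.09, adjusted p = 0.258). LAS1 (chrXI:560789-562297, minus strand) had 2061 and 2264 in LAS1-AID, against 2440.3 and 2194 in WT, with overlapping values (log2 fold change -0.10, SE 0.11, adjusted p = 0.843). Of the 3 tagged genes with a test, RAT1 alone passed in its own strain, and protein levels were not measured in these data.

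The genes next to the tags did not pass against WT. Of the 2 annotated neighbours on either side of RAT1, DIS3 and LAS1, limma called none against WT in the strain tagged there. The largest difference was at RSB1, the upstream neighbour of RAT1, with 494 and 599.8 in RAT1-AID, against 376 and 249.98 in WT (log2 fold change 0.83, SE 0.26, adjusted p = 0.328). TOS7, near DIS3, had a log2 fold change of -0.32 in RRP44-AID against WT (adjusted p = 0.111) and fell against the other AID strains (-0.39, adjusted p = 0.0244). ERD1, which follows RRP17 on the other strand, had 1041 in RRP17-AID, against 1257 and 1571 in WT.

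**Figure D2:**
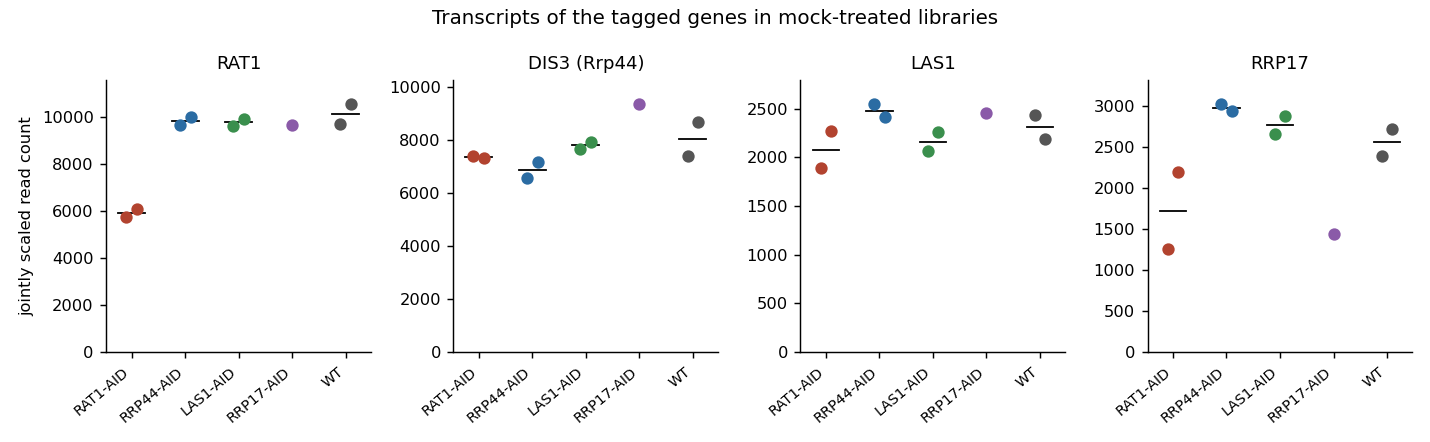
Scaled counts (y axis) of RAT1, DIS3, LAS1 and RRP17 in the mock-treated libraries, 1 point per library, with the AID strains left of WT. The RAT1 transcript lies at 5757 and 6111 in RAT1-AID, against 9710.1 and 10554 in WT, and RRP17 at 1448 in the single RRP17-AID library, against 2399.8 and 2720.1 in WT.

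The arginine synthesis genes ARG1 and ARG4 fell in RAT1-AID and in RRP44-AID. ARG1, which encodes argininosuccinate synthetase, had 447 and 432 scaled counts in RAT1-AID and 600.5 and 394 in RRP44-AID, against 3306 and 2581 in WT. In LAS1-AID it stood at 3337 and 3359 and in RRP17-AID at 5011. The 4 libraries of RAT1-AID and RRP44-AID therefore lay far below all others, and the RRP17-AID library above all others. ARG1 was 6.64-fold lower in RAT1-AID (log2 fold change -2.73, SE 0.19, adjusted p = 0.000579) and 5.99-fold lower in RRP44-AID (log2 fold change -2.58, SE 0.19, adjusted p = 0.000517), and in LAS1-AID the log2 difference was 0.20 (adjusted p = 0.818).

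ARG4, argininosuccinate lyase, had 2758 and 2700.0 in RAT1-AID and 3425 and 3238 in RRP44-AID, against 6950.5 and 6982 in WT. It fell in both strains, by a log2 fold change of -1.35 (SE 0.07, adjusted p = 0.000106) in RAT1-AID and -1.06 (SE 0.07, adjusted p = 0.000444) in RRP44-AID. ARG3, ornithine carbamoyltransferase, had 80.8 and 97.2 in RAT1-AID and 116 and 89.9 in RRP44-AID, against 220.4 and 190.1 in WT, and passed in RRP44-AID (adjusted p = 0.0288) but not in RAT1-AID (adjusted p = 0.0515). The ARG3 call in RRP44-AID was lost without WT mock A, WT mock B, RRP44-AID mock A, RRP44-AID mock B, LAS1-AID mock A or LAS1-AID mock B (adjusted p up to 0.178), while ARG1 and ARG4 stayed called in both strains on leaving out any 1 library.

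The wider list of genes controlled by Gcn4 as used here holds 27 members, which are amino acid synthesis genes, the vitamin B6 gene SNZ1 and GCN4 itself. In RAT1-AID 6 of the 27 were called lower (0.323% of all features tested were called lower), 0 were called higher and all 27 were below WT, with a median log2 fold change of -0.38. In RRP44-AID 9 were called lower (1.68% of all features tested), 0 were called higher and 1 was above WT, with a median of -0.38. The median of all features tested was 0.00 in RAT1-AID and -0.02 in RRP44-AID. In LAS1-AID 0 of the 27 were called by limma, 16 were above WT and the median was 0.04. In the single RRP17-AID library 26 were above the WT mean, with a median log2 ratio of 0.29, beside 0.00 over all features tested. The 6 calls in RAT1-AID became 2 to 3 without WT mock B, RAT1-AID mock A, RRP44-AID mock A, RRP44-AID mock B, LAS1-AID mock A or LAS1-AID mock B and 10 without RAT1-AID mock B, and the 9 in RRP44-AID became 3 to 5 without WT mock A, WT mock B, RRP44-AID mock A, RRP44-AID mock B, LAS1-AID mock A or LAS1-AID mock B. The list was put together with results of these data known.

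Its called members span several pathways. HOM2, aspartate semialdehyde dehydrogenase of the threonine and methionine pathway, was called lower in RAT1-AID, at 5192 and 6126, against 10939.9 and 13994 in WT (log2 fold change -1.13, SE 0.13, adjusted p = 0.0105). This call was lost without RAT1-AID mock A, RRP44-AID mock A or RRP44-AID mock B (adjusted p up to 0.0622). HOM3, the aspartate kinase of that pathway, was called in both strains, with log2 fold changes of -0.56 in RAT1-AID (adjusted p = 0.0411) and -0.56 in RRP44-AID (adjusted p = 0.0132). ASN1, asparagine synthetase, was at 31231 and 29239.9 in RAT1-AID and 30671 and 30261 in RRP44-AID, against 42684 and 45338 in WT. It passed at adjusted p = 0.0495 in RAT1-AID and 0.0148 in RRP44-AID. LYS2, alpha-aminoadipate reductase, was called in RAT1-AID (log2 fold change -0.66, adjusted p = 0.0355), a call lost without WT mock B, RRP44-AID mock A, RRP44-AID mock B, LAS1-AID mock A or LAS1-AID mock B (adjusted p up to 0.244), and ILV6, LYS21, TRP4 and LYS1, of branched-chain amino acid, lysine and tryptophan synthesis, were called in RRP44-AID, with log2 fold changes of -0.83, -0.38, -0.40 and -0.56. HOM3 and ASN1 lost their RAT1-AID calls without RRP44-AID mock A. They also lost them without WT mock B, RAT1-AID mock A, LAS1-AID mock A or LAS1-AID mock B. The RRP44-AID calls of HOM3, ASN1, LYS21, TRP4 and LYS1 were all lost without WT mock A. Most of them were also lost without WT mock B or any 1 library of RRP44-AID or LAS1-AID. ARG7 and ARO5, which were outside the list, fell in RAT1-AID as well, by log2 fold changes of -1.13 and -1.38, with ARG7 named after its values were seen. GCN4 itself had 28500.4 and 24424 in RAT1-AID and 21500.2 and 29400.0 in RRP44-AID, against 25436 and 30915 in WT, and was not called in either strain. GCN4 is controlled mainly in translation, which was not measured here.

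Differences between AID strains, which leave the WT levels out, split the strains in the same way. Each sets 1 strain against the mean of the other 2, so the 3 contrasts are not independent. A high level in LAS1-AID alone makes RAT1-AID and RRP44-AID lower in them. Against the other AID strains, 6 of the 27 genes were called lower in RAT1-AID (2.92% of all features tested) and 7 in RRP44-AID (4.88%), with 0 higher in either, while 10 were called higher in LAS1-AID (0.775%) and 0 lower. These counts became 3 without RAT1-AID mock A, RRP44-AID mock A, RRP44-AID mock B, LAS1-AID mock A or LAS1-AID mock B for RAT1-AID, 2 to 3 without RRP44-AID mock A, RRP44-AID mock B, LAS1-AID mock A or LAS1-AID mock B for RRP44-AID and 2 to 5 without RRP44-AID mock A, RRP44-AID mock B, LAS1-AID mock A or LAS1-AID mock B for LAS1-AID. In LAS1-AID against RAT1-AID and RRP44-AID, ARG1 had a log2 fold change of 2.85 (adjusted p = 0.000168). HIS3, a histidine synthesis gene partly deleted in BY4741, fell in RRP44-AID with 968 and 856, against 1406 and 1249 in WT (adjusted p = 0.0316). This call was lost without WT mock A, WT mock B, RRP44-AID mock A, RRP44-AID mock B, LAS1-AID mock A or LAS1-AID mock B. The HIS3 level was not particular to RRP44-AID, since RAT1-AID had 941 and 913, although limma did not call HIS3 there.

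**Figure D3:**
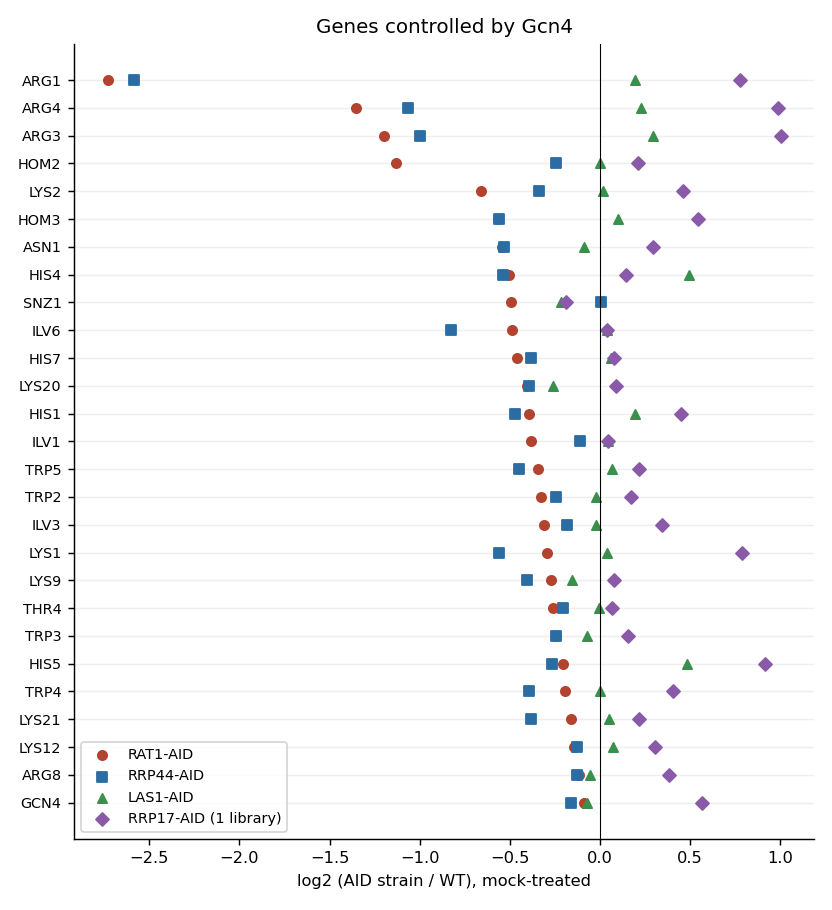
Log2 ratio to WT (x axis) of the 27 genes on the Gcn4 list (rows), with 1 symbol per mock-treated AID strain. RAT1-AID symbols lie below 0 for all 27 genes and RRP44-AID symbols for all but 1, while 26 of the 27 RRP17-AID symbols lie above 0, with ARG1 at -2.73 for RAT1-AID, -2.58 for RRP44-AID and 0.78 for RRP17-AID.

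Gcn4 binds TGACTCA, which is TGAGTCA on the other strand. Within the 250 bases before the start codon (RefSeq, assembly R64), either form was present for 14 of the 27 list genes (51.9%), against 130 of 6001 promoters of all protein genes (2.17%). Of the 20 protein genes called lower in RAT1-AID 8 had it (40%), and of the 100 called lower in RRP44-AID 13 did (13%), whereas 2 of 75 protein genes called higher in RRP44-AID had it (2.67%). List genes made up 4 of the 8 and 4 of the 13. The list was picked as controlled by Gcn4, so the motif in its members is not an independent result. ARG1, ARG3, HOM3, LYS21 and TRP4, the other list genes called lower in either strain, had no match in this window, which says only that these letters were not in it. The 29-base windows around the motif are shown for the 6 list genes called lower in either strain that had a match, as the part of each promoter that the search found. They run 5′ to 3′ on the strand of the gene, with the motif in capitals. They lie at chrVIII:141564-141592 (minus strand) for ARG4, chrXVI:822382-822410 (plus) for ASN1, chrIV:770162-770190 (plus) for HOM2, chrIII:105681-105709 (minus) for ILV6, chrIX:420969-420997 (minus) for LYS1 and chrII:474103-474131 (minus) for LYS2.
ARG4 promoter site: tagtagatgaaTGACTCActttttggata
ASN1 promoter site: catgtaacattTGACTCAttctgtaaact
HOM2 promoter site: caagcattgatTGACTCAttttcctctga
ILV6 promoter site: caccgttatcgTGACTCActttctttcgc
LYS1 promoter site: tactaagtcgaTGAGTCAaaaaagactct
LYS2 promoter site: tttttcgcgtgTGACTCAatgtcgaaata

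Of the other features called in RAT1-AID, the largest change was in the Ty1 open reading frame YJR027W. It had 45.8 and 36.4 scaled counts in RAT1-AID, against 582 and 663 in WT, and between 557 and 711 in the other AID strains. It was 14.9-fold lower in RAT1-AID (log2 fold change -3.89, SE 0.16, adjusted p = 1.6e-05), and Ty1 copies are nearly identical, so how its reads were assigned among copies is uncertain. Only 3 features rose in RAT1-AID by limma (0.0485% of those tested). RIT1, which modifies initiator tRNA, had 989 and 963 in RAT1-AID, against 464 and 426 in WT, with no overlap (log2 fold change 1.13, SE 0.10, adjusted p = 0.00417), a call lost with only RAT1-AID and WT in the fit (adjusted p = 0.091) and under the crossed pairing (0.142). The snoRNA SNR67 (1962 and 1881 in RAT1-AID, against 1251 and 1249 in WT) and YGL177W, an open reading frame within MPT5 (253 and 224 in RAT1-AID, against 117 and 99.9 in WT), were the other 2 to rise. Their calls were lost on leaving out any of the 8 libraries other than RAT1-AID mock B, at adjusted p up to 0.244 for SNR67 and 0.384 for YGL177W. ROF1 (log2 fold change -1.35, adjusted p = 0.0374) and the putative transporter gene MCH4 (-1.15, adjusted p = 0.0263) fell, and MCH4 lost its call without WT mock B, RAT1-AID mock A, RRP44-AID mock A or RRP44-AID mock B (adjusted p up to 0.113) and ROF1 without WT mock A, WT mock B, RAT1-AID mock A, RRP44-AID mock A, RRP44-AID mock B, LAS1-AID mock A or LAS1-AID mock B (adjusted p up to 0.273).

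RRP44-AID libraries had higher counts for many reading frames that lie opposite a protein gene. Of 228 tested open reading frames that overlap a RefSeq gene on the opposite strand and have no RefSeq protein gene of their own, 36 were called higher (2.07% of all features tested were called higher) and 0 lower. The 36 calls became 10 to 19 without WT mock A, WT mock B, RRP44-AID mock A or RRP44-AID mock B. Of the 228, 196 were above WT, and the median log2 fold change was 0.61, beside -0.02 over all features tested. Of all 694 reading frames without a RefSeq protein gene, 322 reached the mean of at least 10 needed for a test. That mean includes the RRP44-AID libraries, so low reading frames could enter through high RRP44-AID values. This selection favours higher medians and shares above WT in RRP44-AID. The same features had medians of 0.10 in LAS1-AID, 0.11 in RAT1-AID and -0.02 in RRP17-AID. Against the other AID strains, 62 were called higher in RRP44-AID (4.96% of all features tested) and 2 lower. The 94 such reading frames with no gene on the other strand had a median of 0.13 in RRP44-AID, with 4 called higher and 1 lower.

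YCL007C, opposite VMA9, had 459 and 534 scaled counts in RRP44-AID, against 57.7 and 43.6 in WT (log2 fold change 3.28, SE 0.32, adjusted p = 0.00206). All other AID libraries held between 38.1 and 78.3 of YCL007C, so RRP44-AID stood apart from every other strain. YGL152C, opposite the peroxisome gene PEX14, had 279 and 384 in RRP44-AID, against 35.5 and 35.1 in WT (log2 fold change 3.18, SE 0.28, adjusted p = 0.00108). YPL222C-A, opposite FMP40, had 189 and 239 in RRP44-AID, against 31.2 and 19.4 in WT, and YOR041C, opposite CUE5, had 139 and 353 in RRP44-AID, against 30.5 and 44.2 in WT. Both passed (adjusted p = 0.00644 and 0.017), and YOR041C lost its call without WT mock A or RRP44-AID mock B (adjusted p up to 0.104) and YPL222C-A without RRP44-AID mock B (adjusted p up to 0.0544). YCR064C (opposite BUD31) and YLL037W (opposite PRP19) rose by log2 fold changes of 2.47 and 2.31. YPL222C-A, YOR041C, YCR064C and YLL037W lay under 50 in every library outside RRP44-AID. They reached the mean of 50 used for naming through their RRP44-AID values.

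Of 38 tested genes opposite a reading frame called higher, 1 was called higher (2.63%, beside 2.07% of all features tested) and 5 lower (13.2%, beside 1.68%), 29 were below WT and the median log2 fold change was -0.11. The 5 became 1 to 2 without WT mock A, WT mock B, RRP44-AID mock A, RRP44-AID mock B, LAS1-AID mock A or LAS1-AID mock B. PEX14 fell (log2 fold change -0.57, adjusted p = 0.0326) and so did CUE5 (-0.88, adjusted p = 0.0144), whereas VMA9 had -0.26 (adjusted p = 0.181) and FMP40 -0.23 (adjusted p = 0.337). The libraries were stranded, but the strand setting of the counting is not given in the sources used here, so how fully the reads of the 2 strands were separated is not known.

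**Figure D4:**
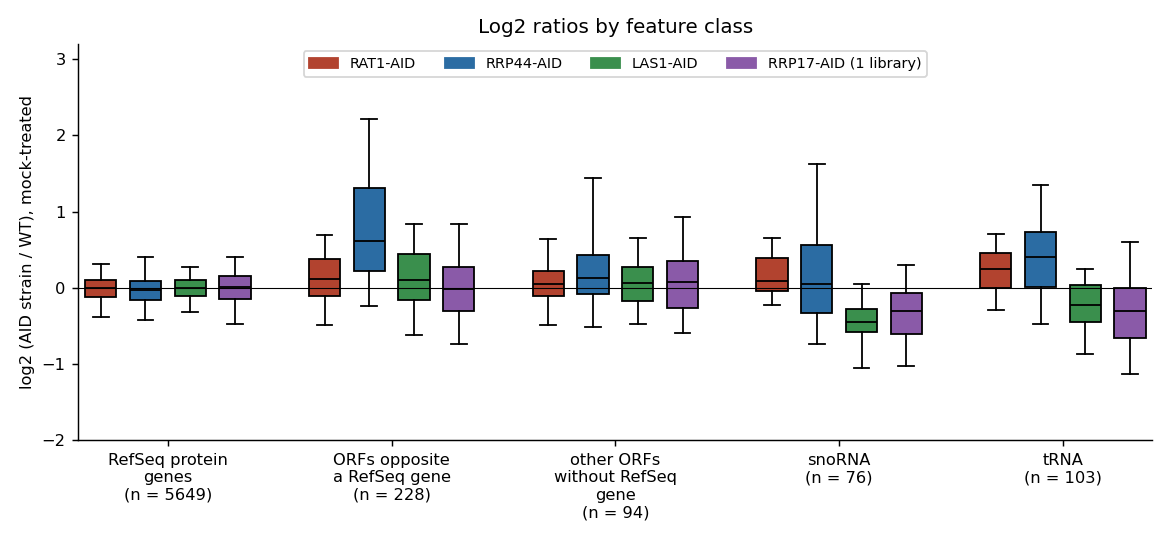
Log2 ratios to WT (y axis) by feature class (x axis) in each mock-treated AID strain, as boxes over the features tested. The reading frames opposite a RefSeq gene have a median of 0.61 in RRP44-AID, 0.11 in RAT1-AID and 0.10 in LAS1-AID, and the snoRNA medians are -0.45 for LAS1-AID and -0.30 for RRP17-AID.

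The largest rise in RRP44-AID was in YJL047C-A, a short reading frame of 135 bases, uncharacterised (chrX:349044-349178, minus strand). It had 3768 and 2945 in RRP44-AID, against 171 and 171 in WT, and between 132 and 225 in the other AID strains. It was 19.4-fold higher in RRP44-AID (log2 fold change 4.28, SE 0.18, adjusted p = 3.03e-05) and called on leaving out any 1 library. Its sequence is shown as the feature with the largest called change, all in lower case since no part of it is marked.
YJL047C-A: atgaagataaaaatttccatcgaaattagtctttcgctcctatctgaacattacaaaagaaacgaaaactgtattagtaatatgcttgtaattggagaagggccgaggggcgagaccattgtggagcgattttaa

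Of 76 snoRNAs, 7 were called higher in RRP44-AID (9.21%, beside 2.07% of all features tested) and 2 lower (2.63%, beside 1.68%). The 7 became 2 to 4 without WT mock B, RRP44-AID mock A or RRP44-AID mock B. Of 45 C/D box snoRNAs, which guide rRNA methylation, 6 were called higher and 0 lower (median log2 fold change 0.29), and of 29 H/ACA box snoRNAs, which guide pseudouridylation, 1 was called higher and 2 lower (median -0.23). SNR48, a C/D box snoRNA, had 1198 and 2823 scaled counts in RRP44-AID, against 224 and 203 in WT (log2 fold change 3.10, SE 0.47, adjusted p = 0.0132). Both RRP44-AID values of SNR48 lay above every other library, although they differed widely from each other, and the call was lost without WT mock A or RRP44-AID mock B (adjusted p up to 0.0686). SNR66 had 863 and 1160.2 in RRP44-AID, against 289.9 and 327 in WT (log2 fold change 1.70, SE 0.17, adjusted p = 0.00206), and kept its call on leaving out any 1 library. SNR38 and SNR39, which lie within TEF4 and RPL7A, rose by log2 fold changes of 1.62 (adjusted p = 0.0309) and 1.35 (adjusted p = 0.00644). Among H/ACA box snoRNAs SNR85 rose (1.33, adjusted p = 0.0145) and SNR84 fell (-0.73, adjusted p = 0.0136), as did SNR44 (-0.60, adjusted p = 0.0405), whose host gene RPS22B fell too. SNR38 and SNR84 lost their calls without any 1 of the WT and RRP44-AID libraries (adjusted p up to 0.17 for SNR38 and 0.0783 for SNR84). SNR39 lost it without RRP44-AID mock A (adjusted p up to 0.0553), SNR85 without RRP44-AID mock A or RRP44-AID mock B (adjusted p up to 0.082) and SNR44 without WT mock A, WT mock B, RRP44-AID mock B, LAS1-AID mock A or LAS1-AID mock B (adjusted p up to 0.192). SNR48 (chrVII:609584-609696, plus strand) is printed because it had the largest rise of any snoRNA, with the C box TGATGA and the D box CTGA in capitals.
snR48: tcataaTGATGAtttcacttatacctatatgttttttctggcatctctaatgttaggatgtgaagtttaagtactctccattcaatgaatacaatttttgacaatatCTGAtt

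In LAS1-AID and RRP17-AID the snoRNAs lay lower. Of 76 snoRNAs, 5 were above WT in LAS1-AID and 15 in RRP17-AID, and the median log2 ratio was -0.45 for LAS1-AID and -0.30 for RRP17-AID, beside 0.09 for RAT1-AID and 0.05 for RRP44-AID. The snoRNA medians of the 2 LAS1-AID libraries were -0.57 and -0.26, and those of the WT libraries lay 0.14 above and below their mean. None was called against WT in LAS1-AID by limma, and against the other AID strains 9 were called lower (11.8%, beside 0.775% of all features tested) and 0 higher. That reference includes RRP44-AID, where some snoRNAs were raised, so these calls cannot tell a fall in LAS1-AID from a rise in RRP44-AID. SNR48, for instance, had 224 and 97.6 in LAS1-AID, against 224 and 203 in WT and 1198 and 2823 in RRP44-AID. The 9 became 0 to 4 without RRP44-AID mock A, LAS1-AID mock A or LAS1-AID mock B. The 103 tRNA features that were tested had negative medians in LAS1-AID (-0.22) and RRP17-AID (-0.30) and positive ones in RRP44-AID (0.41) and RAT1-AID (0.25), with the WT libraries 0.33 above and below their mean. In RRP44-AID 4 of them were called higher (3.88%, beside 2.07% of all features tested) and 0 lower, and the 4 became 0 to 2 without WT mock B, RRP44-AID mock A, RRP44-AID mock B, LAS1-AID mock A or LAS1-AID mock B. Copies of a tRNA gene share their sequence, so levels of single tRNA features are uncertain.

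Of the exosome and cofactor genes, NRD1 was called higher in RRP44-AID. NRD1 encodes the RNA-binding factor that ends noncoding transcription and whose own transcript is cut short by that route. It had 10657 and 15035 in RRP44-AID, against 4571 and 6647 in WT (log2 fold change 1.20, SE 0.20, adjusted p = 0.017), without overlap, and lost its call without WT mock A or RRP44-AID mock B (adjusted p up to 0.085). It was the sole called member of the 21 exosome and cofactor genes, whose median was 0.14. Of 12 tested noncoding RNAs other than snoRNAs, tRNAs and rRNAs, 6 were above WT in RRP44-AID. SRG1 and TLC1 were the 2 called higher (16.7%, beside 2.07% of all features tested), and 0 were called lower. SRG1, the noncoding RNA transcribed across the SER3 promoter, had 3934 and 4583 in RRP44-AID, against 2408 and 2143 in WT (log2 fold change 0.90, SE 0.10, adjusted p = 0.00457), and the telomerase RNA TLC1 had 19811 and 18977 in RRP44-AID, against 12657 and 14255 in WT (log2 fold change 0.53, SE 0.11, adjusted p = 0.0365). The TLC1 call was lost without WT mock A, WT mock B, RRP44-AID mock A, RRP44-AID mock B, LAS1-AID mock A or LAS1-AID mock B (adjusted p up to 0.211), and SRG1 stayed called on leaving out any 1 library.

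Protein genes of unrelated roles were among the largest falls in RRP44-AID. CYB2, the L-lactate dehydrogenase cytochrome b2, had 19.6 and 23.1 in RRP44-AID, against 166 and 125 in WT, and was 6.52-fold lower (log2 fold change -2.70, SE 0.23, adjusted p = 0.00103). GYP5, a GTPase-activating protein of Rab GTPases, had 383 and 370.0 in RRP44-AID, against 2229.6 and 2096 in WT, and was 5.73-fold lower (log2 fold change -2.52, SE 0.11, adjusted p = 3.03e-05). For both genes every other AID library lay above the RRP44-AID libraries, with CYB2 between 168 and 249 and GYP5 between 1649.7 and 2515. CSR2, an arrestin-related protein, had 73.4 and 73.2 in RRP44-AID, against 305 and 259.7 in WT (log2 fold change -1.92, SE 0.16, adjusted p = 0.00102), and YNL040W had 636 and 702 in RRP44-AID, against 2149 and 2111 in WT (log2 fold change -1.67, SE 0.09, adjusted p = 8.1e-05). The polyamine exporter gene TPO2 had 22.8 and 25.7 in RRP44-AID, against 77.4 and 82.9 in WT (adjusted p = 0.00545). ZIP2, a meiotic gene, had 17.9 and 32.1 in RRP44-AID, against 66.7 and 80.5 in WT (adjusted p = 0.0289), a call lost without WT mock A, WT mock B, RRP44-AID mock A, LAS1-AID mock A or LAS1-AID mock B (adjusted p up to 0.114). CYB2, GYP5, CSR2, YNL040W and TPO2 stayed called on leaving out any 1 library.

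Of 20 glucose-repressed genes 4 were called lower in RRP44-AID (1.68% of all features tested were) and 0 higher, with a median of -0.23. CYB2 was 1 of them, and the others had low counts: the malate synthase gene MLS1 (11.4 and 8.99 in RRP44-AID, against 35.5 and 31.5 in WT), the mitochondrial succinate-fumarate carrier gene SFC1 (1.63 and 5.14 in RRP44-AID, against 21.1 and 27.8 in WT) and the gluconeogenic gene FBP1 (11.4 and 10.3 in RRP44-AID, against 32.6 and 33.3 in WT). Their adjusted p-values were 0.0306 for MLS1, 0.0263 for SFC1 and 0.0461 for FBP1, and each call was lost on leaving out single libraries, for MLS1 without WT mock A, WT mock B, RRP44-AID mock A, RRP44-AID mock B or LAS1-AID mock A (adjusted p up to 0.18), for SFC1 without WT mock A, WT mock B, RRP44-AID mock A or LAS1-AID mock A (adjusted p up to 0.11) and for FBP1 without WT mock A, WT mock B, RRP44-AID mock A, RRP44-AID mock B, LAS1-AID mock A or LAS1-AID mock B (adjusted p up to 0.2). Heme oxygenase HMX1 rose, with 478 and 427 in RRP44-AID, against 215 and 211 in WT (log2 fold change 1.08, SE 0.13, adjusted p = 0.00545).

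Of 135 ribosomal protein (r-protein) genes, 8 were called lower in RRP44-AID against WT (5.93%, beside 1.68% of all features tested) and 1 higher (0.741%, beside 2.07%), and in RAT1-AID and LAS1-AID 0 were called by limma. The 8 became 1 to 3 without WT mock A, WT mock B, RRP44-AID mock A, RRP44-AID mock B, LAS1-AID mock A or LAS1-AID mock B. The median over the 135 genes was lowest in LAS1-AID (-0.25), followed by RRP17-AID (-0.21), RRP44-AID (-0.13) and RAT1-AID (0.06). RPS22B, which hosts SNR44 in an intron, had 7163 and 7308 in RRP44-AID, against 16767 and 14902 in WT (log2 fold change -1.13, SE 0.08, adjusted p = 0.000517), and 8298 in RRP17-AID. RPL7B had 5259 and 4357 in RRP44-AID, against 7126 and 6715 in WT (log2 fold change -0.53, adjusted p = 0.0289), a call lost without WT mock A, WT mock B, RRP44-AID mock B, LAS1-AID mock A or LAS1-AID mock B (adjusted p up to 0.163). Against the other AID strains, 18 r-protein genes were called higher in RAT1-AID and 0 lower (1.92% of all features tested were called higher), and the 18 became 1 to 2 without RAT1-AID mock A, RRP44-AID mock A, RRP44-AID mock B, LAS1-AID mock A or LAS1-AID mock B. Paralogs of r-proteins are close copies, and reads that fit both may have been dropped or split between them.

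Other stress and growth lists had few calls against WT. Of 41 targets of the heat shock factor Hsf1, 3 were called higher in RRP44-AID (SPI1, CUR1 and AHA1, with log2 fold changes of 1.03, 0.50 and 0.40) and 0 lower, with a median of 0.00, where 2.07% of all features tested were called higher. All 3 lost their calls on leaving out either WT or either RRP44-AID library, at adjusted p up to 0.102 for SPI1, 0.105 for CUR1 and 0.161 for AHA1. The Hsf1 median was 0.18 in LAS1-AID and 0.18 in RAT1-AID, with 36 of 41 genes above WT in each, and 0 were called by limma. HSP82, the Hsp90 chaperone, had 21265 and 21113 scaled counts in RAT1-AID, 18892 and 21017 in LAS1-AID, 20678 and 14808 in RRP44-AID and 14400.0 in RRP17-AID, against 14520.2 and 11908 in WT. Its adjusted p was 0.215 or higher in all 3 tested strains. The disaggregase gene HSP104 had 19322 and 16023 in RAT1-AID, against 11612 and 8907 in WT (adjusted p = 0.113), and BTN2, SSA4, HSP42, RPN4, HSP12 and TPS2 did not pass in any strain against WT by limma.

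Of 205 tested targets of the general stress factors Msn2 and Msn4, 0 were called against WT in RAT1-AID and LAS1-AID, and 2 were called higher (0.976%) and 3 lower (1.46%) in RRP44-AID, shares no larger than the 2.07% and 1.68% of all features tested. The median was highest in RAT1-AID (0.20, with 178 genes above WT), and it was 0.06 in LAS1-AID, -0.05 in RRP17-AID and -0.09 in RRP44-AID. Against the other AID strains 19 were called higher in RAT1-AID (9.27%, beside 1.92% of all features tested) and 1 lower, and in RRP44-AID 26 were called lower (12.7%, beside 4.88%) and 3 higher. The 19 became 1 to 4 without RAT1-AID mock A, RRP44-AID mock A, RRP44-AID mock B, LAS1-AID mock A or LAS1-AID mock B and 36 without WT mock A or WT mock B, and the 26 became 4 to 11 without RAT1-AID mock A, RRP44-AID mock A, LAS1-AID mock A or LAS1-AID mock B and 40 without WT mock A or WT mock B. HSP12, a membrane protein of that response, had 955 and 1359 in RAT1-AID, 347 and 296 in LAS1-AID and 165 and 502 in RRP44-AID, against 535 and 357 in WT. It was higher in RAT1-AID than in the other AID strains (log2 fold change 1.90, adjusted p = 0.0425), a call lost without RAT1-AID mock A, RAT1-AID mock B, RRP44-AID mock A, LAS1-AID mock A or LAS1-AID mock B (adjusted p up to 0.199). Of 168 ribosome biogenesis genes, 11 were above WT in RAT1-AID (median -0.19) and 119 in RRP44-AID (median 0.06), with 0 called against WT in either by limma. Against the other AID strains 13 of these were called lower in RAT1-AID (7.74%, beside 2.92% of all features tested) and 1 higher, and 11 were called higher in RRP44-AID (6.55%, close to the 4.96% of all features tested) and 0 lower. The 13 became 0 without RAT1-AID mock A, RRP44-AID mock A, RRP44-AID mock B, LAS1-AID mock A or LAS1-AID mock B and 27 to 41 without WT mock A, WT mock B or RAT1-AID mock B, and the 11 became 1 to 3 without RAT1-AID mock A, RRP44-AID mock A, RRP44-AID mock B, LAS1-AID mock A or LAS1-AID mock B and 22 to 43 without WT mock A, WT mock B or RAT1-AID mock B.

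Each strain could also be set against the other 2 replicated AID strains, which leaves the WT libraries out of the difference. RRP44-AID had 609 called features (9.84% of those tested), RAT1-AID 300 (4.85%) and LAS1-AID 96 (1.55%). ARG1 and ARG4 were among them in all 3 contrasts, lower in RAT1-AID (ARG4 log2 fold change -0.93) and RRP44-AID (ARG4 -0.50) and higher in LAS1-AID (ARG4 1.44). These contrasts share strains and are not independent, and ARG4 in RRP44-AID (3425 and 3238) lay above RAT1-AID (2758 and 2700.0). YRO2, a membrane protein gene, was higher in RAT1-AID than in the other AID strains (731 and 754 in RAT1-AID, against 484 and 457 in LAS1-AID and 228 and 233 in RRP44-AID, adjusted p = 0.00343). COS8, a subtelomeric gene, was lower in LAS1-AID (258 and 167 in LAS1-AID, against 837 and 659 in RRP44-AID and 1710.2 and 703 in RAT1-AID, adjusted p = 0.0438), a call lost without RAT1-AID mock A, RRP44-AID mock A, RRP44-AID mock B, LAS1-AID mock A or LAS1-AID mock B (adjusted p up to 0.446). The counts moved with single libraries: RAT1-AID had 17 to 34 calls without any 1 library of RRP44-AID or LAS1-AID, 21 without RAT1-AID mock A and 624 without RAT1-AID mock B. RRP44-AID had 139 without RRP44-AID mock A, 318 without RRP44-AID mock B, 218 and 219 without LAS1-AID mock A and B, and 400.0 without RAT1-AID mock A, and LAS1-AID had 16 and 7 without its mock A and B, 45 without RRP44-AID mock A and 219 without RAT1-AID mock B.

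The mean of the 3 replicated AID strains differed from WT in 11 features (0.178% of those tested), of which 1 was higher (0.0162%) and 10 were lower (0.162%). ARG4 (log2 fold change -0.73, SE 0.06, adjusted p = 0.00452) and ARG1 (log2 fold change -1.71, SE 0.16, adjusted p = 0.00653) were among those lower, although ARG4 lost this call without WT mock A or WT mock B (adjusted p up to 0.0809) and ARG1 without WT mock A (adjusted p up to 0.0809). Neither was called in LAS1-AID, where ARG4 stood at 8273 and 8045, against 6950.5 and 6982 in WT. YNL040W was the sole called feature with a mean of at least 50 in which all 6 AID libraries lay below both WT libraries (log2 fold change -0.72, adjusted p = 0.00889). Most of this difference lay in RRP44-AID, at 636 and 702. RAT1-AID had 1784 and 1897 and LAS1-AID 1795 and 1729, against 2149 and 2111 in WT. YNL040W lost its call in the mean of the 3 strains without WT mock A, WT mock B, LAS1-AID mock A or LAS1-AID mock B. The count was 1 without WT mock A, 2 without WT mock B and 6 without either LAS1-AID library. No feature was thus called as lower or higher in each AID strain taken alone, since LAS1-AID had 0 calls by limma. To see how 2 tables of this series differ with no tag, BY4741 in DMSO for 45 min was set against BY4741 in DMSO for 15 min. The time in DMSO differs too, and both tables are of 1 untagged strain. The comparison therefore does not measure how tables of separate strains differ. Of 6202 features limma called 0 (404 with an unadjusted p under 0.05), edgeR called 0 and DESeq2 39, and limma called 356 without DMSO 15 min A and 362 without DMSO 15 min B.

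In the single RRP17-AID library, 22 of 5676 features with a mean of at least 50 lay at least 2-fold past both WT libraries (0.388%), 7 above (0.123%) and 15 below (0.264%). Taken singly in the same way, the RAT1-AID libraries had 43 and 20, the RRP44-AID libraries 75 and 72 and the LAS1-AID libraries 7 and 14. The features below included paralogs of 60S r-proteins. RPL7B had 2104 in RRP17-AID, against 7126 and 6715 in WT (log2 ratio -1.72), RPL9B 3393, against 10913 and 11073 in WT (-1.70), and RPL8A 9835, against 29527 and 30723 in WT (-1.61). Each was also lower in RRP17-AID than in any other AID library. The log2 ratios of their paralogs were -0.07 for RPL7A, -0.39 for RPL9A and 0.02 for RPL8B, beside a median of -0.21 over the r-protein genes.

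The cell wall mannoprotein genes TIR1 and DAN1 had 672 and 77.5 in RRP17-AID, against 2137 and 3443 (TIR1) and 266 and 238 (DAN1) in WT. IMD2, an inosine monophosphate dehydrogenase gene, had 1477 in RRP17-AID, against 3964 and 4773 in WT, though RAT1-AID ranged down to 1569. Genes above WT included ARO9 and ARO10, of aromatic amino acid breakdown, at 6328 and 5857 in RRP17-AID, against 2988 and 3021 (ARO9) and 2264 and 2192 (ARO10) in WT. ARG56, annotated in arginine synthesis, was at 5491 in RRP17-AID, against 2354 and 2655 in WT, and GCV2, of glycine cleavage, at 13050.0 in RRP17-AID, against 6421 and 5968 in WT. All of these are differences of 1 library from 2.

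**Figure D5:**
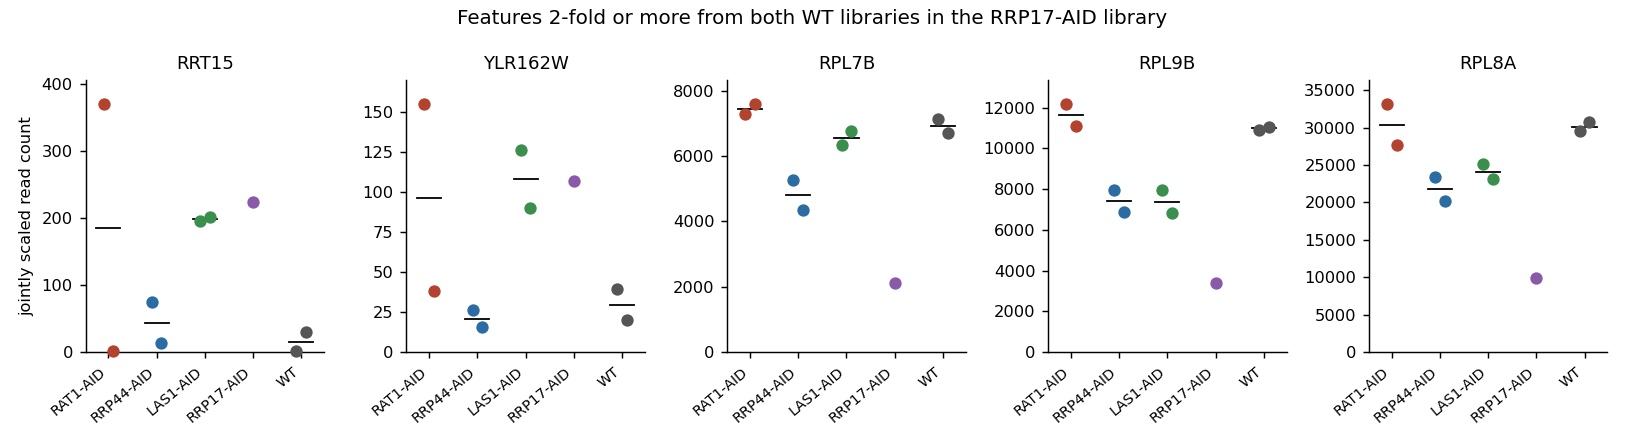
Scaled counts of features at least 2-fold past both WT libraries in the single RRP17-AID library, with 1 point per mock-treated library. RPL7B lies at 2104 in RRP17-AID, against 7126 and 6715 in WT, and the RRT15 points spread from 1.08 to 369 over the libraries.

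RRT15 was also among the 7 features above WT, at 224 in RRP17-AID, against 1.08 and 30.3 in WT, where the lower value is near the limit of detection. The other AID strains did not hold to 1 level, with 196 and 201 in LAS1-AID, 369 and 1.35 in RAT1-AID and 75.1 and 12.8 in RRP44-AID. RAT1-AID thus held both the highest and nearly the lowest RRT15 value, the WT libraries differed widely too, and LAS1-AID against WT did not pass (adjusted p = 0.602). YLR162W, upstream of RRT15 on the same strand, had 107 in RRP17-AID, 126 and 89.9 in LAS1-AID, 154 and 37.8 in RAT1-AID and 26.1 and 15.4 in RRP44-AID, against 39.1 and 20.0 in WT. Both reading frames lie partly in a stretch of 790 bases (chrXII:489753-490542, plus strand) that is 99.0% identical, with 8 differences, to chrXII:451785-452574, the strand opposite the end of the 25S rRNA gene RDN25-1 (chrXII:451786-455181, minus strand). Of RRT15, 137 of 189 bases lie in it, and of YLR162W 177 of 357. The shared 137 bases are shown to make plain how close the copies are, with the 2 bases that differ in capitals, and levels of these reading frames are therefore uncertain.
RRT15: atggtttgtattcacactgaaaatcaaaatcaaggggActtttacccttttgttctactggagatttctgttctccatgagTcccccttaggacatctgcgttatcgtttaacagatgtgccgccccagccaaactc
strand opposite 25S rRNA: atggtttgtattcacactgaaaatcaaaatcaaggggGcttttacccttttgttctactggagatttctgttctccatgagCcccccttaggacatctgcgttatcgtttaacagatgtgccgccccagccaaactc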

How the data were processed

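RNA of mock-treated RAT1-AID, RRP44-AID, LAS1-AID, RRP17-AID and WT cells was sequenced from stranded libraries made after Ribo-Zero removal of rRNA. The authors used Cutadapt and PRINSEQ to clean the reads, TopHat2 2.1.0 to align them (builds R64 and sacCer3 in the processing notes) and HTSeq to count them per feature, and deposited as the signal of each library the count divided by DESeq2 size factors, with 1 table of 7126 features per strain. The log2 fold changes and adjusted p-values of the authors' own DESeq2 fits of mock against auxin are also in these tables and were not used. The RPKM files of diamide-treated cells, deposited by the authors, were not used.

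The 9 distinct mock columns were rescaled together by median ratios over the 6508 features above 0 in all of them, since the authors had scaled each table on its own. Fits used limma 3.58.1 (R 4.3.3) on log2(scaled count + 1), strain as the only variable, features with a mean of at least 10, 8 libraries. Each strain was compared with WT, with the other 2 replicated AID strains and as part of the AID mean, and RRP17-AID as ratios of 1 library. An exact permutation test of 2 libraries against 2 cannot pass 0.05 and was not run. The limma p-values rest on the spread between the 2 libraries of a strain, which differ in isolate and day. That spread was pooled over the replicated strains and moderated across features.

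Whole reads were recovered (tolerance 0.001) for 8 of the 9 libraries and used with edgeR 4.0.16 and DESeq2 1.42.0 as alternatives. They could not be recovered for RRP44-AID mock B, whose reads and depth were not used. Scripts were tested on simulated data. Other alternatives were a pseudocount of 10, no filter, a mean of at least 100, TMM scaling, no variance trend, a replicate block, only the groups compared, auxin-treated WT as the reference, and leaving out each library. Positions and sequences are from RefSeq (R64), which matched 6167 identifiers. Tables and figures used Python 3.11.15, numpy 2.4.6, pandas 2.3.3 and matplotlib 3.10.9.

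Genes were named by a rule: the tagged genes and 2 neighbours on either side, per comparison with WT the 8 largest rises and falls among calls with a mean of at least 50 and no overlap (4 each way against other AID strains, 6 for the AID mean), fixed stress and marker genes, and up to 4 called members of a list. Other genes, such as opposite-strand partners, paralogs, ARG7 and further called list members, were named after their values were seen. The comparisons and gene lists were chosen with earlier results of these data known. Results of 1 gene are not reported here, and it was left out of its gene list.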

Additional observations from a re-analysis of the deposited data

Results flagged for a closer look

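Transcript levels differed between AID strains by a direct test of 1 strain against the other 2 replicated AID strains. The difference leaves out WT, whose libraries share in the fitted variance, and a fit of the AID libraries alone called 448 features for RAT1-AID, 668 for RRP44-AID and 76 for LAS1-AID. RAT1-AID differed from RRP44-AID and LAS1-AID in 300 features, 119 higher and 181 lower. RRP44-AID differed from RAT1-AID and LAS1-AID in 609 features, 307 higher and 302 lower. LAS1-AID differed from RAT1-AID and RRP44-AID in 96 features, 48 higher and 48 lower. All are calls by limma at an adjusted p under 0.05 of 6190 features, and each strain has its own table, so strain and table cannot be told apart. The contrasts share strains and are not independent of each other.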

How the results depend on the processing

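For RAT1-AID mock against WT mock the main count was 23 (3 higher, 20 lower), and it was 13 without a variance trend, 4 with only the groups compared, 54 with auxin-treated WT as the reference (22 higher, 32 lower), 11 with edgeR, 129 with DESeq2 (42 higher, 87 lower) and 11 with the DMSO libraries in the fit. For RRP44-AID mock against WT mock the count was 232, and it was 136 with only the groups compared and 121 with the DMSO libraries. For LAS1-AID mock against WT mock the count was 0, against 1 with only the groups compared and 93 with DESeq2. For the mean of the 3 AID strains against WT mock it was 11, against 38 with auxin-treated WT. Against the other AID strains, RAT1-AID mock had 300 calls, against 160 with no filter, 65 without a trend and 33 with the DMSO libraries, RRP44-AID mock had 609, against 404 at a mean of at least 100 and 278 with the DMSO libraries, and LAS1-AID mock had 96, against 36 with the DMSO libraries. For BY4741 DMSO 45 min against DMSO 15 min the count was 0, against 39 with DESeq2. The cause of these moves was not tested.

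Leaving out 1 library gave 11 to 150 calls for RAT1-AID, 69 to 256 for RRP44-AID, 0 to 0 for LAS1-AID and 1 to 11 for the AID mean against WT, 17 to 624 for RAT1-AID, 139 to 763 for RRP44-AID and 7 to 219 for LAS1-AID against the other AID strains, and 0 to 362 between the DMSO times. Where a group is left with 1 library, it is assumed to vary like the others.

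The letters A and B did not pair the libraries in the same direction across strains. The correlation of A minus B between strains ranged from -0.386 (RAT1-AID with WT) to 0.257 (RRP44-AID with WT). A fit with the letter as a replicate block gave 14 calls for RAT1-AID, 147 for RRP44-AID and 7 for the AID mean against WT, and 44 for LAS1-AID against the other AID strains. Crossed pairing of RAT1-AID and WT, added after seeing the data as were the DMSO libraries in the fit, gave 4 calls.

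Of 257 called values of single features, all 257 kept their direction under every alternative run, and 57 stayed past the threshold in every one. Count tools were not run on contrasts that need RRP44-AID mock B. With 2 libraries a strain, small differences may go uncalled, and the single RRP17-AID library allows no test. Its count of 22 was 22 with TMM scaling, 16 at a mean of at least 100 and 17 with a pseudocount of 10.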
